A study of Mus musculus with 12 samples.

Results

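Mature skeletal muscle sarcomere genes, 37 of the 18193 genes named on the arrays, were described array by array in transplanted mouse lung adenocarcinomas. The genes were listed by name, as a measure of host muscle in the sample, and each was read from 1 probe set, that of highest mean over the 12 arrays. Fibre kind was assigned from textbook knowledge: 13 genes are characteristic of fast fibres, 7 of slow fibres, and 17 are used in both. The line 344SQ is a mouse lung adenocarcinoma line, and it was grown as parental cells (Sen in the labels) or as anti-PD-1 resistant cells (Res) under the skin of the right flank of female 129sv/ev mice, of an age that the labels do not give. Each tumour-bearing group of 5 mice was given control IgG or anti-PD-1, an antibody against a checkpoint receptor of T cells, at 10 mg/kg on day 4 and again on day 7, and tumours were taken on day 11. This gave 4 groups of 3 arrays: parental IgG, parental anti-PD-1, resistant IgG and resistant anti-PD-1. Which mice the arrays came from, whether animals were pooled, whether the resistant cells are 1 clone, and whether adjoining muscle was trimmed from the tumours cannot be read from the labels, so the p-values speak only of how far these arrays spread, part of which may be technical.

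The sarcomere is the contractile unit of striated muscle: myosin thick filaments pull on actin thin filaments, which are anchored at the Z disc, and calcium from the sarcoplasmic reticulum switches the thin filament on through troponin and tropomyosin. Fast and slow fibres build this unit from different paralogues of the myosin heavy and light chains, the troponins and myosin-binding protein C, and they differ in calcium handling and energy supply. Carcinoma cells are epithelial and carry no sarcomeres, while the flank of a mouse has skeletal muscle close beneath the skin. Tumour and host are both mouse, so the arrays did not separate their transcripts.

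Promoters of 4 genes are shown because they differ in how far they varied: Acta1 (skeletal alpha-actin), Ckm (muscle creatine kinase) and Myh4 (fast myosin heavy chain IIb) had wide ranges over the arrays, and Tnnc1 (troponin C of slow fibres and heart) a narrower one (2.42 log2). Each is the run of 250 bases before the annotated start, 5′ to 3′ on the gene's strand, from RefSeq on GRCm38.p6. Capitals mark the E-box CAGCTG, the TATA box TATAAA, the MEF2 motif and the CArG box on either strand.
Acta1 chr8:123894776-123895025, minus strand: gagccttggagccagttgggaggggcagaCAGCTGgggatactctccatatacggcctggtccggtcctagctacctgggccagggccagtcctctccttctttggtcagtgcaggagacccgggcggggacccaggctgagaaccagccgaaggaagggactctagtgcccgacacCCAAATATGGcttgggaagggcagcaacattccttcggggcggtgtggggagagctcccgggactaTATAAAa
Ckm chr7:19410844-19411093, plus strand: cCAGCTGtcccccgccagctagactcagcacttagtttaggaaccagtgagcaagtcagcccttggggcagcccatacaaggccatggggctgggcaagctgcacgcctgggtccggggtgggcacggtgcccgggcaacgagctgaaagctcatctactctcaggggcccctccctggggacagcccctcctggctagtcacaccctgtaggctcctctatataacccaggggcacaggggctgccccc
Myh4 chr11:67237562-67237811, plus strand: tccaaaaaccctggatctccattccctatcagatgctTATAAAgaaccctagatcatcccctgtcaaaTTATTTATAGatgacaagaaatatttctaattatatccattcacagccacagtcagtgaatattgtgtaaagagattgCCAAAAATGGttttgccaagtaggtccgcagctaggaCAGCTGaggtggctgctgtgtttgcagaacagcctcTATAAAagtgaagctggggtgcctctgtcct
Tnnc1 chr14:31208062-31208311, plus strand: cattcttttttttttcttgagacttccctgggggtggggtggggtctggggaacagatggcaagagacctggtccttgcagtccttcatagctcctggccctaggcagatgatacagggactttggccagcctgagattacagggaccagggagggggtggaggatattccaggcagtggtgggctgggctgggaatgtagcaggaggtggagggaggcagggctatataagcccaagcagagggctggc

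The RefSeq table held 37 promoter windows for 30 of the genes. CAGCTG, the E-box variant that myogenic factors are known to bind, was found in 18 of these 37 windows (48.6%) against 13.0% of all 32851 windows of the same length. The wider E-box CANNTG, which includes CAGCTG, was in 83.8% against 66.2%, and TATAAA in 16.2% against 12.4%. The MEF2 motif was in 13.5% of the windows against 2.92% of all, and the CArG box, known as the site of serum response factor, in 13.5% against 1.47%. Acta1 held 1 CAGCTG, 1 TATAAA and 1 CArG box. Myh4 held all 4 motifs, with 3 TATAAA matches, of which 1 lies on the other strand within the letters of the MEF2 motif. Ckm held a single CAGCTG, and Tnnc1 none of the 4 marked motifs. Among genes not shown, Mybpc2 and Tnnc2 also held none, with wide ranges of 6.38 and 5.65 log2. Tnni1 held CAGCTG and Myl3 a CArG box, with narrower ranges of 2.48 and 0.91. A link between motifs and range was not tested. Matches describe letters in these windows. Several genes had more than 1 annotated start, and overlapping windows of 1 gene could hold the same site, as for the CArG box of Ldb3. Counted by gene, CAGCTG was in 16 of 30, the MEF2 motif in 5 and the CArG box in 4.

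The deposited log2 values had near-equal quantiles on the arrays, and correlations between arrays ran from 0.959 to 0.997. The difference between 3′ and 5′ control probe sets for Gapdh was 0.14 to 0.38 log2 in the 6 parental tumours and -0.03 to 0.09 in the 6 resistant tumours. The genes were set beside a second list of skeletal muscle genes. That list was also chosen with earlier results of these data known and is no independent check. Of its 41 genes tested, 35 were lowest on parental IgG replicate 1 or resistant anti-PD-1 replicate 1. The same arrays were lowest for 34 of the 37 sarcomere genes. The highest array was parental anti-PD-1 replicate 3 for 31 of these 41 and for 35 of the 37. Of 9 heart muscle markers outside the 37 genes, Myh6, Nppa and Ryr2 stayed below the limit for dim genes on every array (2.28 to 2.60, 3.01 to 3.24 and 2.39 to 3.30, limit 3.32). The other 6 passed the filter on dim genes: Tnnt2 measured 9.65 to 11.27, Actc1 4.28 to 8.33, Mybpc3 4.76 to 5.32, Nppb 3.79 to 4.22, Tnni3 3.02 to 4.83 and Myl7 3.02 to 3.61, and their part in the results was not tested.

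The sarcomere genes varied widely between arrays of 1 group. For 37 of 37, the widest range within a group exceeded the largest difference between group means. This held for 63.6% of all 15493 genes tested, and a range of single arrays and a difference between means are unlike measures. Over the 12 arrays the range of the sarcomere genes had a median of 4.72 log2, against 0.65 for all genes tested. It ran from 0.91 for Myl3 to 7.13 for Myh4, a 140-fold span. Ranges over 4 log2 were found for 124 genes (0.8% of those tested), and 25 of these were sarcomere genes. The lowest array was resistant anti-PD-1 replicate 1 for 23 genes and parental IgG replicate 1 for 11, with Tnni1, Myl3 and Tpm2 as the exceptions. Most of the genes thus moved together, so counts of genes here and below are not counts of independent observations. Taken as the median of the 37 genes relative to their own means, the level had an SD over the 3 arrays of 1.76 in parental IgG, 0.91 in parental anti-PD-1, 0.40 in resistant IgG and 1.34 in resistant anti-PD-1 tumours. All 37 passed the filter on dim genes, and Myl2, Ryr1 and Ckmt2 still lay below its limit on 2, 1 and 3 arrays. In whole-tumour RNA, fewer muscle cells and less RNA per muscle cell cannot be told apart.

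**Figure D1:**
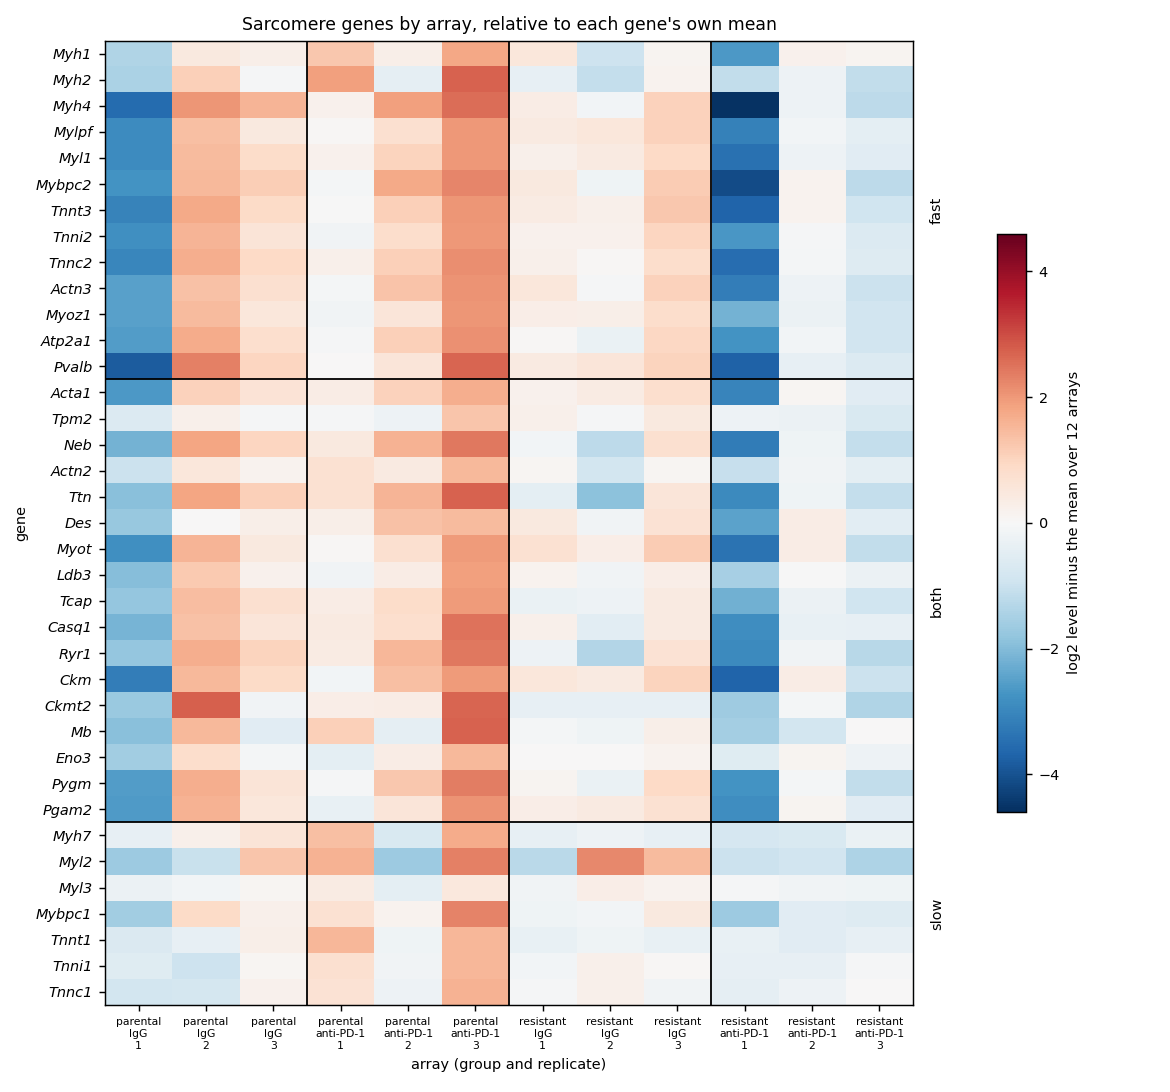
Heat map of the 37 genes (rows, grouped as fast, both and slow) on the 12 arrays (columns, by group and replicate), coloured by log2 level minus the gene's own mean over the arrays. Parental IgG replicate 1 and resistant anti-PD-1 replicate 1 are the low columns, with gene medians of -1.96 and -2.68, and parental anti-PD-1 replicate 3 is the high one, at 2.02.

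Acta1, the actin of skeletal thin filaments, measured 8.75, 12.46 and 12.01 log2 in parental IgG tumours, 11.73, 12.43 and 13.05 in parental anti-PD-1 tumours, 11.58, 11.75 and 12.15 in resistant IgG tumours, and 8.33, 11.48 and 10.88 in resistant anti-PD-1 tumours (replicates 1, 2 and 3 in order here and below). Replicate 1 of parental IgG and of resistant anti-PD-1 thus lay far below the other arrays, which ran from 10.88 to 13.05. Group means were 11.07 ± 2.02, 12.40 ± 0.66, 11.83 ± 0.29 and 10.23 ± 1.67 (SD, n = 3). Neb encodes nebulin, the giant protein along the thin filament, and measured 4.78, 8.77 and 7.93, then 7.39, 8.56 and 9.37, then 6.81, 5.75 and 7.70, and 3.73, 6.77 and 5.85. The same arrays were lowest, and resistant IgG replicate 2 was next. Tpm2, the beta-tropomyosin that covers the actin sites, moved less, between 7.88 and 9.85, and it is also a gene of smooth muscle.

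The thick filament genes held both the widest and the narrowest ranges. Myh4, the myosin of the fastest fibres, measured 6.38, 11.94 and 11.47 in parental IgG, 10.13, 11.80 and 12.50 in parental anti-PD-1, 10.24, 9.80 and 10.97 in resistant IgG, and 5.37, 9.68 and 8.71 in resistant anti-PD-1. Its 3 resistant anti-PD-1 values lay below all resistant IgG and all parental anti-PD-1 values. Myh1, the fast myosin IIx, ran from 6.58 to 10.99 with parental IgG replicate 1 at 7.85 as the next lowest. Myh2, the myosin IIa of oxidative fast fibres, was highest on parental anti-PD-1 replicates 1 and 3, at 7.39 and 8.22, and lay between 4.03 and 6.60 on the other arrays. The fast light chain genes Mylpf and Myl1 ran from 7.36 to 12.46 and from 7.41 to 12.83, and Mybpc2, the fast myosin-binding protein C, from 4.83 to 11.21.

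Slow members of the thick filament differed among themselves in their order of arrays. Myl2, the regulatory light chain of slow fibres and heart, measured 3.28, 3.93 and 6.22 in parental IgG, 6.55, 3.28 and 7.26 in parental anti-PD-1, 3.69, 7.16 and 6.40 in resistant IgG, and 3.94, 4.06 and 3.52 in resistant anti-PD-1. It was at 6.22 or above on 5 arrays and at 4.06 or below on 7, and each group but resistant anti-PD-1 held both kinds. Myh7, the slow myosin heavy chain, reached 5.96 and 6.28 on parental anti-PD-1 replicates 1 and 3 and stayed between 3.81 and 5.17 elsewhere. Myl3, the essential light chain of slow fibres, ran only from 4.57 to 5.48 in the probe set used, and another of its probe sets, of lower mean, ranged over 2.64 log2. Mybpc1, the slow myosin-binding protein C, ran from 5.11 to 9.03 and shared its extremes with most fast genes: it was lowest on resistant anti-PD-1 replicate 1 (5.11) and parental IgG replicate 1 (5.15) and highest on parental anti-PD-1 replicate 3 (9.03).

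The troponins also differed by fibre kind. Tnnt3, the fast troponin T that holds the complex on tropomyosin, measured 6.60, 11.44 and 10.57 in parental IgG, 9.67, 10.79 and 11.71 in parental anti-PD-1, 10.07, 9.91 and 10.92 in resistant IgG, and 5.99, 9.84 and 8.76 in resistant anti-PD-1. Tnnt1, its slow counterpart, measured 4.84, 5.10 and 5.76, then 7.03, 5.30 and 7.03, then 5.14, 5.29 and 5.14, and 5.13, 4.98 and 5.11. Tnnt1 therefore stood out on parental anti-PD-1 replicates 1 and 3 and lay within 4.84 to 5.76 on the others, where Tnnt3 varied most. The inhibitory and calcium-binding subunits of fast fibres, Tnni2 and Tnnc2, ranged over 4.79 and 5.65 log2, against 2.48 and 2.42 for Tnni1 and Tnnc1 of slow fibres.

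**Figure D2:**
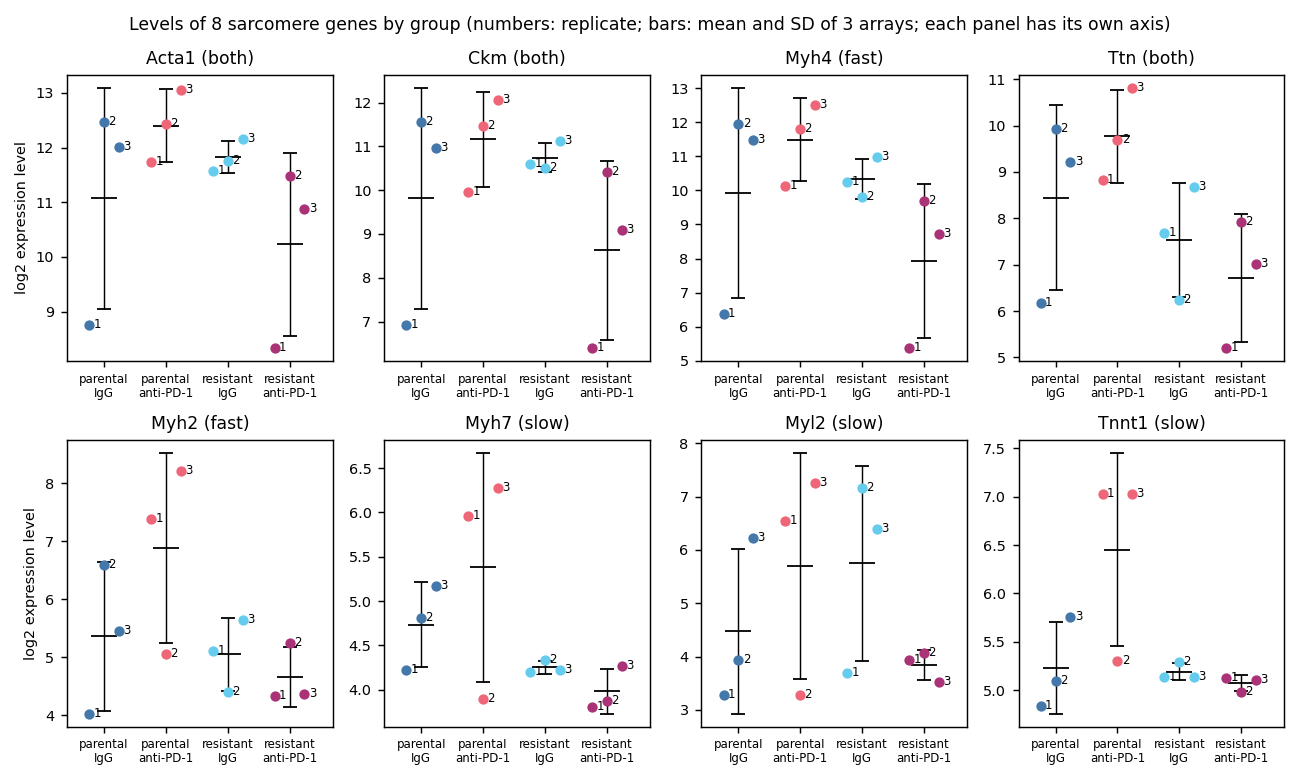
Log2 levels of 8 genes in the 4 groups; points are arrays numbered by replicate, bars give mean and SD of 3 arrays, and each panel has its own axis. Replicate 1 of parental IgG and of resistant anti-PD-1 is low for Acta1, Ckm, Myh4 and Ttn (8.75 and 8.33 for Acta1), while Tnnt1 is high on parental anti-PD-1 replicates 1 and 3 (7.03 on each).

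The Z disc and elastic genes had ranges from 2.55 log2 for Actn2 to 5.62 for Ttn. Ttn encodes titin, the elastic protein from Z disc to M line, and measured 6.18, 9.93 and 9.22 in parental IgG, 8.82, 9.68 and 10.82 in parental anti-PD-1, 7.68, 6.24 and 8.68 in resistant IgG, and 5.20, 7.93 and 7.01 in resistant anti-PD-1. Resistant IgG replicate 2 was nearly as low in Ttn as parental IgG replicate 1 (a difference of 0.06), although Mylpf was higher there by 3.42. Between those arrays fast genes differed by a median of 3.00, slow genes by 0.78 and genes of both kinds by 1.64, and all 37 were positive. This pair of arrays was chosen after its values were seen. Actn3, the alpha-actinin of fast fibres, ran from 6.24 to 11.49 and Actn2, that of both kinds, from 4.69 to 7.24. The Z disc genes Myoz1, Myot, Ldb3 and Tcap ran from 5.14 to 9.66, 3.69 to 9.07, 4.38 to 8.23 and 4.92 to 9.10. Des, the intermediate filament gene desmin, which smooth muscle also uses, ran from 6.70 to 10.63.

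All 4 calcium handling genes ranged over more than 4 log2. Pvalb, the calcium buffer parvalbumin of fast fibres, measured 5.39, 11.54 and 10.23 in parental IgG, 9.24, 9.80 and 11.91 in parental anti-PD-1, 9.66, 9.80 and 10.25 in resistant IgG, and 5.50, 8.85 and 8.61 in resistant anti-PD-1. Ryr1, the calcium release channel, measured 4.24, 7.71 and 7.06, then 6.42, 7.56 and 8.47, then 5.80, 4.69 and 6.70, and 3.10, 5.86 and 4.74. In Pvalb all 3 resistant IgG arrays were close together, whereas in Ryr1 replicate 2 less replicate 3 of that group was -2.01. Atp2a1, the calcium pump of fast fibres, ran from 5.48 to 10.33, and Casq1, the calcium store protein, from 4.33 to 9.68.

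Among the genes of energy and oxygen supply, Ckm measured 6.91, 11.57 and 10.96 in parental IgG, 9.95, 11.47 and 12.06 in parental anti-PD-1, 10.59, 10.51 and 11.12 in resistant IgG, and 6.39, 10.41 and 9.08 in resistant anti-PD-1. Its low arrays were those of Acta1. Ckmt2, the mitochondrial creatine kinase of striated muscle, was the only gene highest on parental IgG replicate 2 (7.40), and it read 4.29 on each of the 3 resistant IgG arrays. Mb, the oxygen store myoglobin of oxidative fibres, was highest on parental anti-PD-1 replicate 3 (10.40) and then on parental IgG replicate 2 (9.19) and parental anti-PD-1 replicate 1 (8.78). The glycogen and glycolysis genes Pygm, Pgam2 and Eno3 ran from 4.26 to 9.37, 5.54 to 10.46 and 8.06 to 11.18.

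Fast and slow fibre genes parted most on the low arrays. Relative to each gene's own mean, the 13 fast genes had a median of -2.81 on parental IgG replicate 1 and -3.19 on resistant anti-PD-1 replicate 1, and the 7 slow genes -0.65 and -0.40. On parental anti-PD-1 replicate 3 both kinds were high, at 2.06 and 1.59. Ranges over the arrays were 4.19 to 7.13 log2 for fast genes (median 5.25), 0.91 to 3.98 for slow genes (median 2.47) and 1.97 to 5.67 for genes of both kinds (median 4.72), so the fast and slow ranges did not overlap. Mean levels over the arrays were 4.59 to 6.76 for slow genes and 5.49 to 10.82 for fast genes, beside the limit for dim genes of 3.32, and the part of signal near that limit in the narrower slow ranges was not tested. Over the 7 matched pairs of fast and slow paralogues, the fast gene relative to its mean less the slow gene relative to its own had a median of -2.25 on parental IgG replicate 1 and -3.11 on resistant anti-PD-1 replicate 1. The highest medians, 2.14 and 1.46, were on replicate 2 of parental IgG and of parental anti-PD-1.

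**Figure D3:**
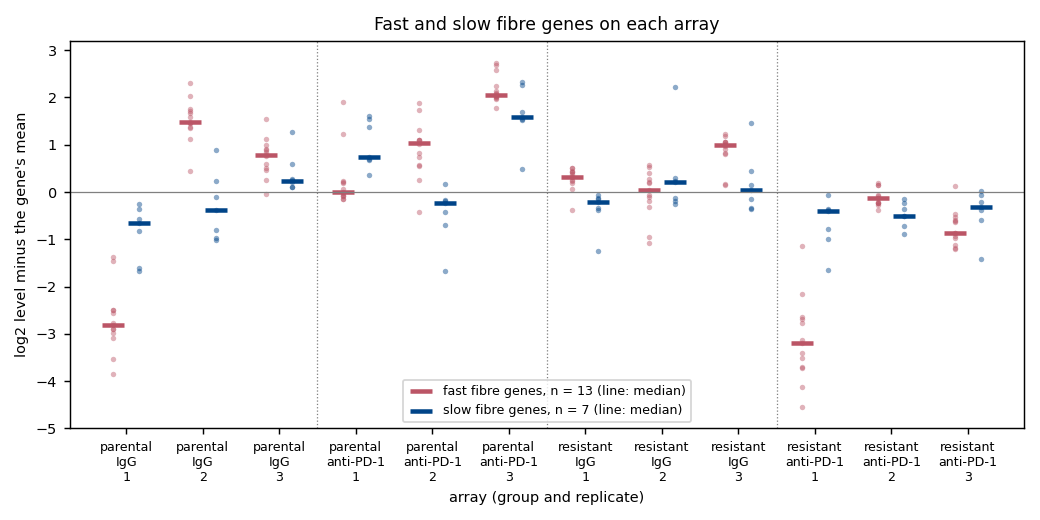
Log2 level minus each gene's mean (vertical axis) on each array (horizontal axis) for 13 fast and 7 slow fibre genes; points are genes and lines are medians. The fast medians run from -3.19 to 2.06, and the slow medians from -0.65 to 1.59.

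The order of arrays could also be opposite for the 2 kinds within 1 group. Parental anti-PD-1 replicate 1 was above replicate 2 in 7 of 7 slow genes (median difference 0.92) and below it in 11 of 13 fast genes (median -0.87), with Myh1 and Myh2 as the exceptions. Of the genes of both kinds, 14 of 17 were lower on replicate 1, and Mb, which was 1.51 higher, was among the others. In parental IgG, replicate 3 was above replicate 2 in 6 of 7 slow genes (median 0.66) and below it in 13 of 13 fast genes (median -0.87). In resistant IgG, replicate 2 was above replicate 3 in 6 of 7 slow genes (median 0.15) and below it in 13 of 13 fast genes (median -1.01). The slow gene on the fast side in both was Mybpc1, at -0.64 and -0.57. These pairs of arrays were picked after their values were seen and are a description only.

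In parental tumours, no sarcomere gene passed the test for anti-PD-1 against IgG, by limma with Benjamini-Hochberg adjustment over all 15493 genes tested. All 37 differences were above 0, between 0.23 and 1.55 log2 (median 1.22, against -0.007 for all genes tested), and 3.5% of all genes were called, 1.23% as higher and 2.27% as lower. The smallest adjusted p-values belonged to slow troponins: Tnni1 differed by 1.17 (SE 0.36, adjusted p = 0.0983), Tnnt1 by 1.22 (SE 0.39, adjusted p = 0.106) and Tnnc1 by 1.15 (SE 0.40, adjusted p = 0.128). Myh4 had the largest difference, 1.55, with an interval of -1.57 to 4.66 (95%), and the median SE of the 37 genes was 0.95 against 0.117 for all genes. The antibody groups overlapped for 36 of 37 genes, and Des was the exception, with 7.43, 9.17 and 9.43 under IgG and 9.44, 10.53 and 10.63 under anti-PD-1. Groups that do not overlap, with anti-PD-1 higher, were found for 9.12% of all genes.

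The median of these parental differences rested on single arrays. Without IgG replicate 1 it was 0.09, with 22 genes above 0 and 15 below, without anti-PD-1 replicate 3 it was 0.69, and without both it was -0.43, with 30 of 37 below 0. Leaving out anti-PD-1 replicate 2 gave 4 calls, all slow (Myh7, Tnnc1, Tnni1 and Tnnt1), among 507 genes called of the 15493 tested. Among markers of other host cells, the median difference was 0.81 for endothelial, 0.47 for adipocyte and 0.37 for keratinocyte markers. It was 0.04 for smooth muscle and -0.16 for nerve markers. The mean of 10 endothelial markers was 5.42 to 5.89 in parental IgG and 6.04 to 7.23 in parental anti-PD-1. Its lowest and highest value were on IgG replicate 1 and anti-PD-1 replicate 3. The mean of 10 epithelial markers was highest, 9.93, on IgG replicate 1. Epcam was highest there (10.37), but Cdh1 and Krt18 were highest on anti-PD-1 replicate 2 (12.05 and 13.33). On resistant anti-PD-1 replicate 1, also low in sarcomere genes, the epithelial mean was 9.05, beside 8.97 and 9.05 on replicates 2 and 3. The mean of 8 adipocyte markers was 5.13 to 6.28 and 6.12 to 7.38 in the 2 groups, and the part of these cells in the result was not tested.

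In resistant tumours, no sarcomere gene passed the limma test for anti-PD-1 against IgG, and neither did any other gene (0.0% called). All 37 differences were below 0, between -2.42 for Myh4 and -0.12 for Tnnt1 (median -1.25, against 0.03 for all genes tested). The smallest adjusted p was 0.896, and 0 sarcomere genes had an unadjusted p under 0.05, against 738 of all genes (4.76%). Fast genes had a median difference of -1.91, genes of both kinds -1.16 and slow genes -0.27. For 15 genes (40.5%) the 3 anti-PD-1 values all lay below the 3 IgG values, which held for 5.39% of all genes tested. Among them were Acta1, Ckm, Myh4, Mylpf and Actn3, the last at 6.24 to 9.21 under anti-PD-1 and 9.36 to 10.48 under IgG. Without anti-PD-1 replicate 1 the median difference was -0.59, with 36 of 37 genes below 0. Adipocyte markers lay at a mean of 6.56 to 8.78 under IgG and 5.60 to 6.58 under anti-PD-1, and endothelial markers at 6.38 to 6.98 and 6.06 to 6.41, and their part in the result was not tested.

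Under IgG, resistant and parental tumours did not differ in any sarcomere gene by limma (0 of 37 called, smallest adjusted p = 0.343), while 16.2% of all genes were called, 8.93% as higher and 7.31% as lower. The median difference was 0.36, with 28 genes above 0 and 9 below. The lowest were Ttn at -0.91, Ckmt2 at -0.66, Ryr1 at -0.61, Myh7 at -0.48, Neb at -0.41 and Myh2 at -0.31, and the highest were Myl2 at 1.27, Mylpf at 1.02 and Myot at 1.00. Of the further Ttn probe sets, those of higher mean gave -0.91, -0.57 and -0.76 and the dimmest ones -0.24 and 0.15. Without parental IgG replicate 1 the median turned to -0.58, with 31 of 37 genes below 0, and with arrays weighted by their fit it was -0.24.

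Under anti-PD-1, 9 sarcomere genes were lower in resistant than in parental tumours and passed the limma test (24.3%, against 11.9% of all genes called lower, 21.6% called higher and 33.5% in either direction). All 37 differences were below 0, with a median of -2.17 against 0.073 for all genes tested. In the thin filament, Tnnt1 differed by -1.38 (SE 0.39, adjusted p = 0.02), from 7.03, 5.30 and 7.03 to 5.13, 4.98 and 5.11. Neb differed by -2.99 (SE 1.04, adjusted p = 0.0455), from 7.39, 8.56 and 9.37 to 3.73, 6.77 and 5.85. In both genes every resistant value lay below every parental value.

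In the thick filament, Mybpc1 differed by -1.96 (SE 0.65, adjusted p = 0.0374), Myh2 by -2.24 (SE 0.78, adjusted p = 0.0472) and Myh7 by -1.40 (SE 0.49, adjusted p = 0.0488). The groups overlapped for Myh2 and Myh7, since parental anti-PD-1 replicate 2 was low in both (5.06 and 3.90). At the Z disc, Ttn differed by -3.06 (8.34-fold lower, adjusted p = 0.0381), Tcap, the titin cap, by -2.18 (adjusted p = 0.0455) and Actn2 by -1.42 (adjusted p = 0.0246). Ryr1 differed by -2.92 (7.55-fold lower, adjusted p = 0.0357), and no gene of energy supply was called. Fast genes gave 1 call of 13 although their median difference was -2.47, slow genes 3 of 7 with a median of -1.38. Myh4 had the largest difference, -3.56 (SE 1.41, 11.8-fold lower), and did not pass (adjusted p = 0.0751).

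**Figure D4:**
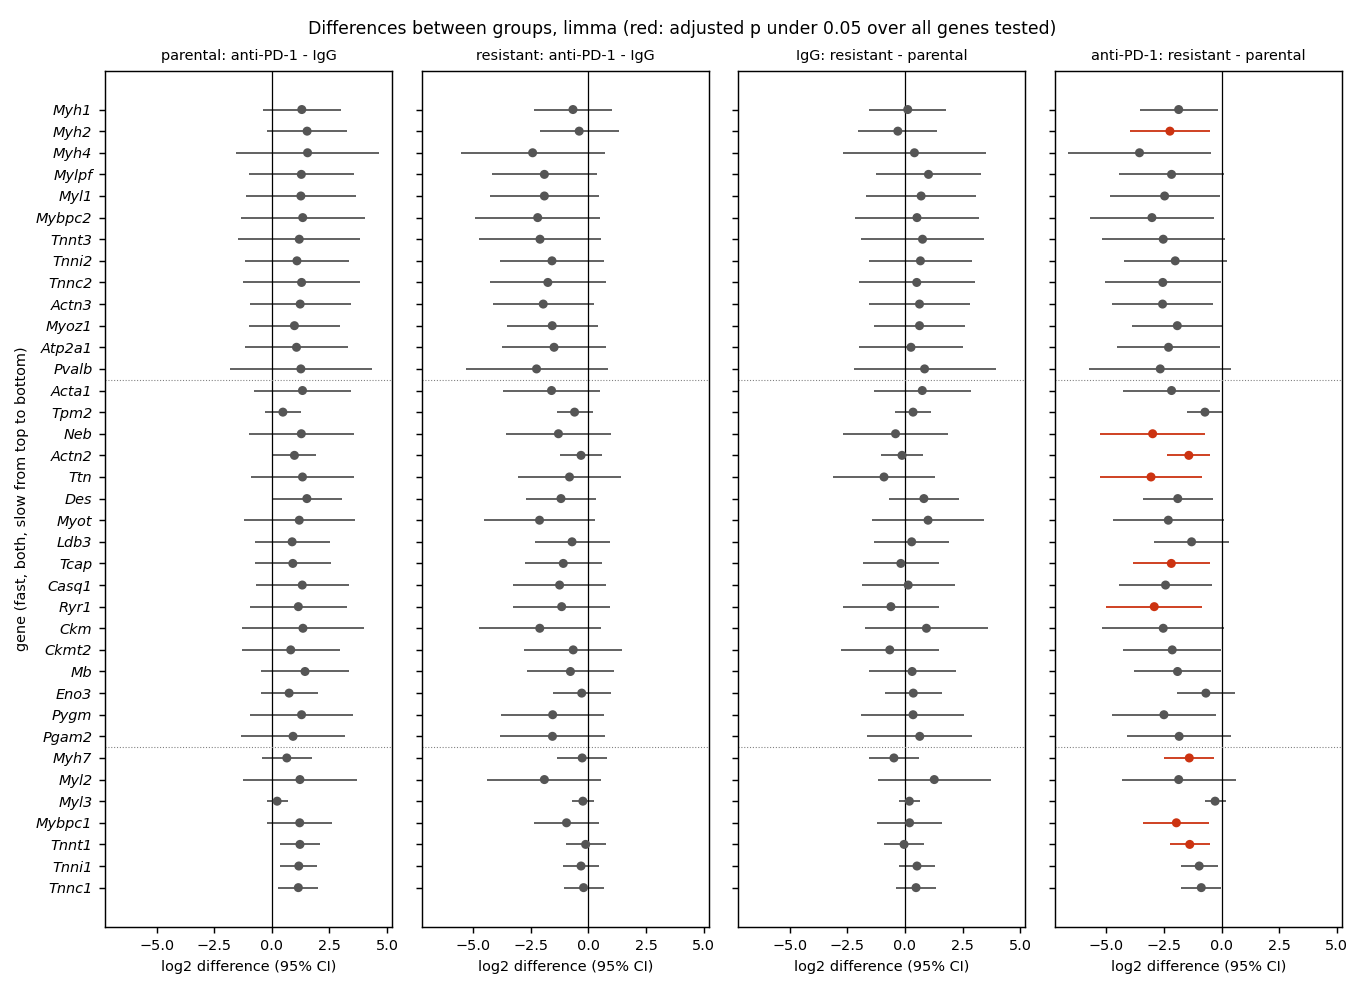
Difference between groups in log2 (horizontal axis, points) with its 95% interval (lines) for the 37 genes (vertical axis) in 4 comparisons, by limma. Red marks the 9 genes with an adjusted p under 0.05, all of them in resistant against parental tumours under anti-PD-1.

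For 20 of 37 genes (54.1%) the resistant anti-PD-1 values all lay below the parental anti-PD-1 values, against 15.8% of all genes tested. The 37 genes are not independent observations, since most shared their low and high arrays. Which genes were called changed with the variance model and with the arrays. With trended and robust variances 2 were called, Actn2 and Tnnt1. With single arrays left out, 0 were called without parental anti-PD-1 replicate 3, and Tnnt1 alone without resistant anti-PD-1 replicate 1 or replicate 3. Other single arrays gave 3 calls (without resistant IgG replicate 1), 5 (without parental IgG replicate 3, resistant IgG replicate 2 or resistant IgG replicate 3) and 25 (without parental IgG replicate 1), and the remaining arrays 7 to 10. Of all 15493 genes, 5158 were called with trended and robust variances and 3826 to 5366 with single arrays left out. No sarcomere gene kept its call over all 12 arrays left out, and Tnnt1 and Actn2 kept theirs in 9 of 12, with adjusted p between 0.00033 and 0.0713 and between 0.0101 and 0.0921. All 37 differences stayed below 0 with each array left out, and the median ran from -2.61 to -1.42. The Gapdh 3′ to 5′ difference also separated the lines, at 0.21 to 0.38 in these parental and -0.02 to 0.09 in these resistant tumours, and its part was not tested. The means of keratinocyte, of endothelial and of adipocyte markers were highest among these 6 tumours on parental anti-PD-1 replicate 3. The mean of 7 keratinocyte markers was 6.29 there and 4.99 to 5.71 on the other 11 arrays. Exceptions among single markers were Krt14, at 6.55 there and 7.31 to 7.67 in resistant anti-PD-1 tumours, and Pnpla2, at 7.72 there and 7.85 on resistant anti-PD-1 replicate 3. Endothelial markers were at 6.04 to 7.23 in parental and 6.06 to 6.41 in resistant tumours under anti-PD-1, and adipocyte markers at 6.12 to 7.38 and 5.60 to 6.58, and their part in the result was not tested.

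**Figure D5:**
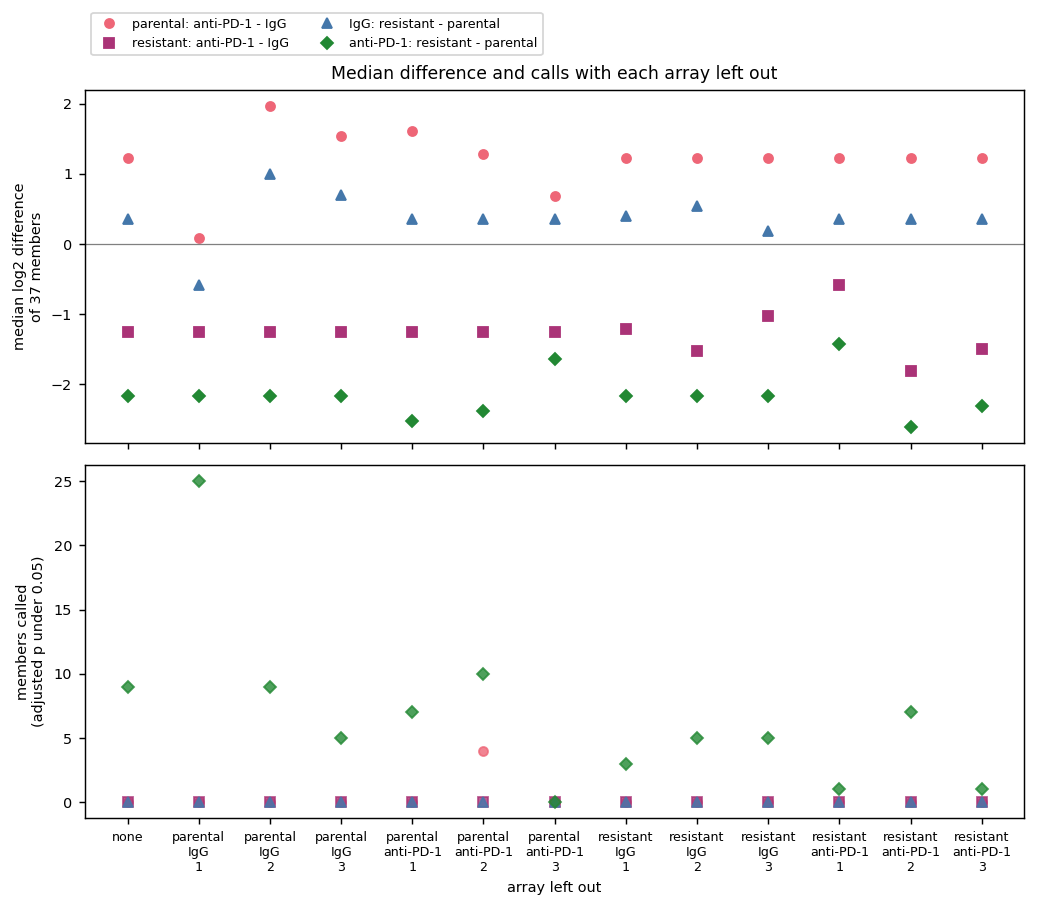
Median log2 difference of the 37 genes (upper panel) and number called (lower panel) in 4 comparisons, with no array or each array left out (horizontal axis). In resistant against parental tumours under anti-PD-1 the calls run from 0 to 25, beside 3826 to 5366 of all genes. The parental median drops to 0.09 without IgG replicate 1.

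The effect of anti-PD-1 was also compared between the lines. All 37 interaction differences, resistant less parental, were below 0 (median -2.55, range -3.96 to -0.47), and no gene, sarcomere or other, passed the limma test (0.0% called, smallest adjusted p for a sarcomere gene 0.197). An unadjusted p under 0.05 was found for 6 sarcomere genes and for 2713 of all genes (17.5%). Without parental IgG replicate 1 the median was -1.40, and without that array and parental anti-PD-1 replicate 3 it was -0.85. The comparisons share arrays: each group enters 2 of the 4 simple comparisons and the interaction.

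Several probe sets were available for 13 genes, with 24 further probe sets, and 24 genes had 1. Of the further probe sets, 15 ranged over more than 2 log2 and 6 over less than 1. Their difference pointed the other way from the one used for 2 probe sets in parental tumours, 1 in resistant tumours, 5 between the lines under IgG and 2 between the lines under anti-PD-1. A further probe set of Tpm2 ranged over 4.47 log2 and differed by -2.07 between the lines under anti-PD-1, where the one used differed by -0.72.

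Other genes of skeletal muscle gave calls in the same comparison. Of 41 tested, 11 were lower and 1 higher in resistant than in parental tumours under anti-PD-1, beside 11.9% lower and 21.6% higher of all genes tested, and their median was -1.18. They included Myom2, a protein of the M line, at -2.98 (SE 0.92, adjusted p = 0.0283), and Srl, sarcalumenin of the sarcoplasmic reticulum, at -2.23 (SE 0.68, adjusted p = 0.0279). Casq2, the calsequestrin of slow fibres and heart, differed by -0.58 (adjusted p = 0.0291) and Fhl1, a LIM protein of muscle, by -1.18 (adjusted p = 0.0296). In parental and in resistant tumours 0 of the 41 were called for anti-PD-1 against IgG, with medians of 0.71 and -0.50. Smooth muscle markers other than Des and Tpm2 had a mean of 5.11 to 6.12 over the arrays, with 0 of 9 called in the antibody comparisons and 1 lower between the lines under anti-PD-1.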

How the data were processed

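Whole-tumour RNA, isolated with Triazol and labelled with biotin, was hybridized to 12 Affymetrix mouse genome arrays, per the labels' protocols. The authors deposited 1 log2 value per probe set and array. That values are log2 and normalized between arrays was judged from their range and near-equal quantiles, since the steps behind them are not given in the sources used here. Unused columns numbered 0. Genes were named by the platform's annotation, updated by gene number, with the probe set of highest mean per gene. A gene entered the tests if 3 or more arrays lay above the lower quartile of the whole table (percentile 25, 3.32), as did 15493 of 18193. Differences were fitted with limma 3.58.1 in R 4.3.3 over all 12 arrays, with 1 mean per group, 8 residual and 2.98 prior degrees of freedom, and p-values were two-sided, adjusted by Benjamini-Hochberg within each of 5 contrasts and called under 0.05. The number of arrays limits the precision. The fit was tested on simulated data.

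The genes, fibre kinds and 9 further lists (135 entries) were chosen with earlier results of these data known. All 37 genes may be named; of the other lists, the 4 smallest p-values in a contrast or the defining markers. Alternatives covered probe set choice, filters, scaling, weights, the variance model and arrays left out. Deviations from group means correlated weakly between resistant arrays of the same replicate number (0.11, 0.12 and 0.17 for numbers 1, 2 and 3). The labels name no pairing. For anti-PD-1 against IgG in resistant tumours the replicate block called 0 of the 37 genes, as did the fit without it. Plots and summaries used Python 3.11.15 and matplotlib 3.10.9.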

Additional observations from a re-analysis of the deposited data

How the results depend on the processing

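Each comparison was refitted under 23 alternatives, or 22 for the interaction, where a fit of the contrast's own groups is the fit of all arrays. No called difference changed its sign. Sarcomere genes called lower in resistant than in parental tumours under anti-PD-1 numbered 9, with a range of 0 to 25 over single arrays left out, 2 with trended and robust variances, and 25 with a replicate block. All genes called there, in either direction, numbered 5186, and 3826 to 5366, 5158 and 5601 under the same alternatives. Deviations from group means on arrays of the same number (1, 2 and 3) correlated by 0.27, 0.09 and 0.22 between these groups. The correlations were 0.64, 0.06 and 0.44 between the parental groups and 0.11, 0.12 and 0.17 between the resistant groups. They were 0.17, -0.21 and 0.25 between the lines under IgG, and 0.41, 0.18 and 0.44 between parental IgG and resistant anti-PD-1. The labels do not say what the number means, and whether arrays of the same number share anything else was not tested. The replicate block also called 1 sarcomere gene, Tnni1, among 725 genes for anti-PD-1 in parental tumours, where 0 to 4 sarcomere genes were called with single arrays left out. In the interaction it called 3 genes of all tested.

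The median parental difference of 1.22 was 0.09 to 1.97 over single arrays left out and -0.43 without IgG replicate 1 and anti-PD-1 replicate 3, and the interaction median of -2.55 was -0.85 without both and -3.13 to -1.40 over single arrays left out. Over all genes tested, the 542 calls for anti-PD-1 in parental tumours became 918 with array weights, 0 with only these groups in the fit (an alternative with fewer samples), 100 without both arrays and 9 to 712 over single arrays left out. The 2517 calls between the lines under IgG became 5152 with array weights and 1273 to 3483 over single arrays left out. In resistant tumours 0 calls became 1 with array weights, 1 with trended and robust variances and 0 to 1 over single arrays left out. In the interaction 0 calls became 121 with array weights and 0 to 78 over single arrays left out. The causes of these shifts were not tested. Calls of single genes rest on 3 arrays a group, and Myl2, Ryr1 and Ckmt2 reach the limit for dim genes on some arrays.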

Other observations

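Some genes often used as muscle markers did not follow the sarcomere genes, or followed them only in part. Sln, the small regulator of the muscle calcium pump, measured 5.86, 5.27 and 7.91 log2 in parental IgG tumours, 8.47, 9.61 and 9.53 in parental anti-PD-1 tumours, 9.93, 9.94 and 10.54 in resistant IgG tumours, and 5.43, 7.88 and 8.36 in resistant anti-PD-1 tumours. It was lowest on parental IgG replicate 2, where most fast fibre genes were high, and highest in resistant IgG tumours. Next lowest were resistant anti-PD-1 replicate 1 (5.43) and parental IgG replicate 1 (5.86), the low arrays of the sarcomere genes. Anti-PD-1 less IgG, Sln had the signs of the sarcomere genes. It differed by 2.86 in parental (adjusted p = 0.067, limma) and by -2.91 in resistant tumours (adjusted p = 0.896). Resistant less parental, Sln differed by 3.79 under IgG (adjusted p = 0.00926, limma) and by -1.98 under anti-PD-1 (adjusted p = 0.0711). Fbp2, the muscle form of fructose bisphosphatase, ran from 6.87 to 7.57 in the 6 parental tumours and from 7.90 to 8.06 in the 6 resistant tumours, and it was lowest on parental anti-PD-1 replicate 3. It differed between the lines by 0.94 under anti-PD-1 (adjusted p = 0.000188, limma) and by 0.59 under IgG (adjusted p = 0.0051). Atp2a2, the calcium pump of slow fibres and heart that most cells also use, ran only from 10.76 to 11.19, and Tpm3, a tropomyosin of slow fibres and of non-muscle cells, from 11.75 to 12.07. Sln, Fbp2, Atp2a2 and Tpm3 were chosen after their values were seen.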
